A study of Mus musculus with 10 samples.

Results

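The genes described here mark the birth and the later identity of inhibitory interneurons, the local neurons of the forebrain that release GABA. The 10 members were chosen by symbol from the 55471 gene rows of the deposited table. Of these, 5 are lineage genes (Dlx1, Dlx2, Dlx5, Dlx6os1 and Lhx6) and 5 are subtype genes of differentiated cells (Pvalb, Sst, Npy, Calb2 and Reln). They occupy 11 rows, because Dlx6os1 has a second identifier for a small RNA that shares 104 of its 146 bases with it. Of these rows, 10 passed the count minimum of 10 counts in at least 5 libraries. The second Dlx6os1 row had 0 to 3 counts in a library and was not tested.

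RNA came from the whole brain of 10 wild-type Swiss Webster pups, given in the labels as neonatal day 5. Every pup had a hypoxic-ischemic injury, meaning a loss of oxygen and blood supply to the brain. Pups 6 to 10 also received allopregnanolone, a steroid derived from progesterone that enhances GABA-A receptors, and pups 1 to 5 had the injury and no treatment. No uninjured pup was analysed here, so the values compare injured brains with each other. The labels give neither dose nor litter, nor whether the stated day is that of injury or collection.

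In the embryonic mouse, interneurons arise in the ganglionic eminences below the striatum and migrate into the cortex and olfactory bulb. Homeodomain proteins of the Dlx family specify these GABA cells, and Lhx6 acts after them in cells of the medial eminence, which give rise to the parvalbumin and somatostatin subtypes. Subtype genes such as Sst and Npy are switched on early, whereas parvalbumin appears in the mouse cortex only after the first postnatal days, later than in parts of the brainstem.

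Library totals ranged from 18656836 to 34270723 estimated counts with allopregnanolone and from 20825007 to 24793334 in untreated pups. A list of 4 genes that GABA neurons share, Gad1 and Gad2 among them, summed to 1248 to 1450 counts scaled to library size (CPM) with allopregnanolone and to 1095 to 1277 CPM in untreated pups. A list of 15 midbrain genes summed to 146, 110, 28.7, 79.0 and 32.7 CPM in allopregnanolone libraries 6 to 10, and to 18.9, 33.6, 25.3, 23.7 and 21.3 CPM in untreated libraries 1 to 5. In the list of 10 hindbrain genes, 9 were below the count minimum. The Hox genes that define the hindbrain were at most 1.22 CPM in any library, although the label is whole brain. Hoxb8 was at 0 in all libraries. Allopregnanolone library 6 had the highest values of Hoxb3 (1.22 CPM), Hoxa3 (0.447 CPM), Hoxb4 (0.328 CPM) and Hoxb2 (0.268 CPM). Hoxa2 was above 0 in allopregnanolone library 7 alone (0.169 CPM), and Hoxb3 and Hoxa3 were at 0 in all untreated libraries. The hindbrain gene tested, the glycine receptor gene Glra1, rose by 1.61 on the log2 scale, and the hindbrain sums were 2.11 to 9.34 CPM with allopregnanolone and 0.742 to 2.05 CPM in untreated pups. Untreated libraries 1 to 3 carry another prefix in their library names than the remaining 7, and the labels do not say what the prefix stands for.

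With allopregnanolone, Pvalb rose 2.37-fold, and Dlx6os1 and Dlx1 fell 2.09-fold and 1.498-fold. The remaining 7 members did not reach the threshold, an adjusted p below 0.05 by the quasi-likelihood method of edgeR. All 5 lineage genes had log2 fold changes below 0 (median -0.47) and 4 of the 5 subtype genes had log2 fold changes above 0 (median 0.18), beside a median of -0.0046 over the 17101 genes tested. Over all genes tested, 11.3% passed that threshold, 6.61% as higher and 4.65% as lower, and of the 10 members 3 passed, 1 as higher and 2 as lower. The groups did not overlap for 2 members, Pvalb (higher) and Dlx6os1 (lower). Across the tested genes 9.64% had no overlap, 5.44% as higher and 4.2% as lower. In whole-brain RNA, fewer cells of a type and less RNA per cell cannot be told apart.

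**Figure D1:**
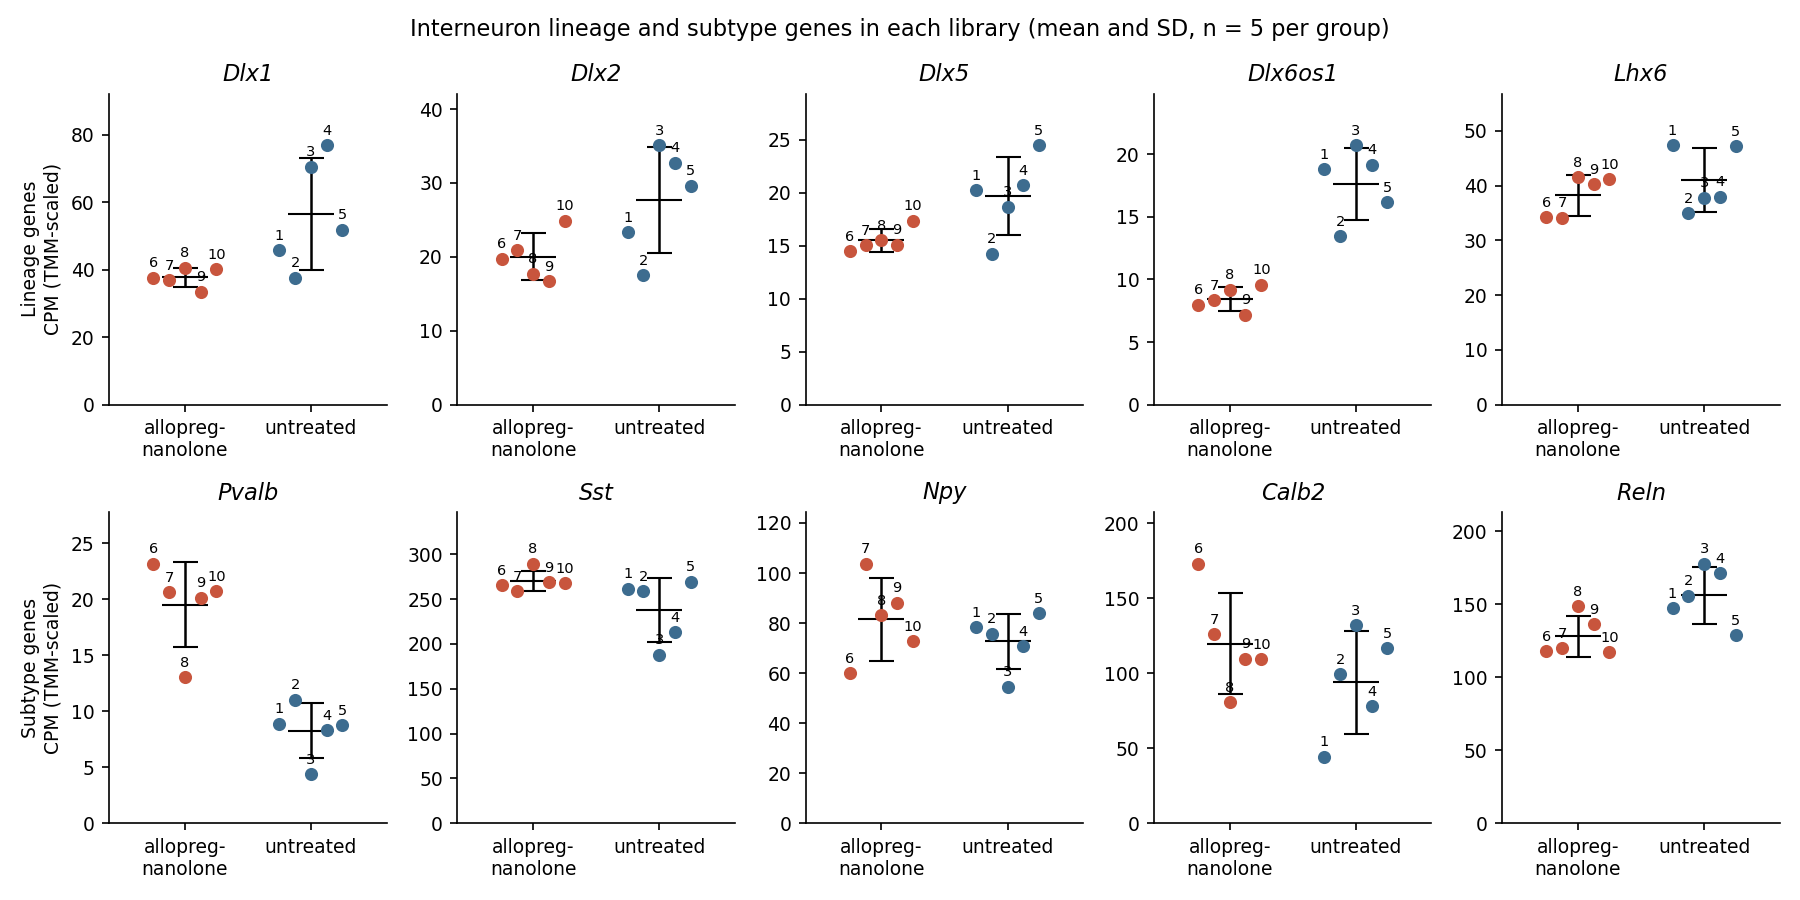
TMM-scaled CPM of each member in each library (points, numbered by pup), with allopregnanolone left of untreated, the lineage genes in the upper row and the subtype genes in the lower row. Horizontal marks are group means and bars are SD (n = 5); Dlx6os1 and Pvalb are the 2 panels in which the groups do not overlap.

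Dlx6os1 is a long non-coding RNA, also known as Evf2, transcribed opposite to Dlx6 and known in mouse forebrain to act on the Dlx5 and Dlx6 locus. It is annotated on GRCm38 at chromosome 6, 6820189 to 6871592, minus strand (ENSMUSG00000090063), with 5173 bases of exon. Its 2 start windows in RefSeq are printed because it was the lineage gene with the largest fall. Each window runs from 250 bases before to 50 bases after an annotated start (GRCm38.p6, minus strand, chr6:6869484-6869783 and chr6:6861634-6861933). Capitals mark the letters TAATTA, a core that homeodomain proteins bind and that reads the same on both strands.
Dlx6os1, window 1: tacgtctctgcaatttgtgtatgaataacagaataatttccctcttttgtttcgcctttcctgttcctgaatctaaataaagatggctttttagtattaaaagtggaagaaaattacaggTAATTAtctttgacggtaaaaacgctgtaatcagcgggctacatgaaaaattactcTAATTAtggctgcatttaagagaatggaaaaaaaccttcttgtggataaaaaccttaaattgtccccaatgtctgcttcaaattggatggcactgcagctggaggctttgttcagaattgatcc
Dlx6os1, window 2: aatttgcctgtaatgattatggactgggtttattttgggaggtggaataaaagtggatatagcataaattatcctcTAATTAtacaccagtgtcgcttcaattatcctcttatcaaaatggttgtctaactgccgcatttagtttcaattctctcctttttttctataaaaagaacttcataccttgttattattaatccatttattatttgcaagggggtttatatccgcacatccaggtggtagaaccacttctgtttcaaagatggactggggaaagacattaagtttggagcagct

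Window 1 holds TAATTA at 130 and 74 bases before the start and window 2 holds it at 174 bases before the start. Among 32851 RefSeq windows of 300 bases, 5.29% hold it. RefSeq windows were matched for 8 of the 10 members (12 windows), and the other 10 windows, of Dlx1, Dlx2, Lhx6, Pvalb, Sst, Npy and Reln, do not hold these letters. The GC content of the Dlx6os1 windows was 35.7% and 35.3%, against 69.3% and 66.3% in the Dlx1 and Dlx2 windows. A match describes the sequence and does not show that a protein binds there.

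Dlx6os1 stood at 7.99, 8.33, 9.19, 7.20 and 9.59 CPM in allopregnanolone libraries 6 to 10, and at 18.8, 13.4, 20.7, 19.2 and 16.2 CPM in untreated libraries 1 to 5. Every allopregnanolone library lay below every untreated library, and untreated library 2 was the nearest to them. The means were 8.46 ± 0.952 CPM with allopregnanolone and 17.7 ± 2.87 CPM in untreated pups (SD, n = 5 each). On the log2 scale this was a change of -1.06 (SE 0.12, edgeR adjusted p = 0.00033), and 133 of the 17101 genes tested had a lower one. The call held in 21 of 22 alternative analyses, with log2 fold changes of -1.15 to -0.72. It was lost when the mean of the midbrain list was a covariate (-0.72, adjusted p = 0.0929, edgeR). That list itself differed between the groups, so the covariate shares part of the group difference.

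The neighbouring protein genes of the same cluster moved less on the log2 scale, although the differences between genes were not tested. Dlx5, a homeodomain factor of young GABA cells (chromosome 6, 6877805 to 6882085), stood at 14.5, 15.03, 15.5, 15.1 and 17.4 CPM in allopregnanolone libraries 6 to 10, and at 20.3, 14.3, 18.7, 20.7 and 24.5 CPM in untreated libraries 1 to 5. Untreated library 2 was below all allopregnanolone libraries and the other 4 untreated libraries were above all of them. Dlx5 had a log2 fold change of -0.35 (SE 0.12, edgeR adjusted p = 0.0722), short of the threshold. Dlx6, the protein gene opposite Dlx6os1, averaged 15.4 ± 2.55 CPM with allopregnanolone and 17.2 ± 2.34 CPM in untreated pups (SD, n = 5 each), with a log2 fold change of -0.17 (SE 0.12, adjusted p = 0.416, edgeR). Dlx6os1 CPM per Dlx6 CPM was 0.643, 0.470, 0.690, 0.397 and 0.629 in allopregnanolone libraries 6 to 10, and 0.953, 0.972, 1.28, 1.11 and 0.854 in untreated libraries 1 to 5. This ratio did not overlap between the groups either, and neither did Dlx6os1 CPM per Dlx5 CPM, at 0.477 to 0.591 with allopregnanolone and 0.66 to 1.11 in untreated pups. The exons of Dlx6os1 share no base with those of Dlx5 or Dlx6 in GENCODE M21, and the opposite-strand small RNAs annotated within it had 0 counts.

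**Figure D2:**
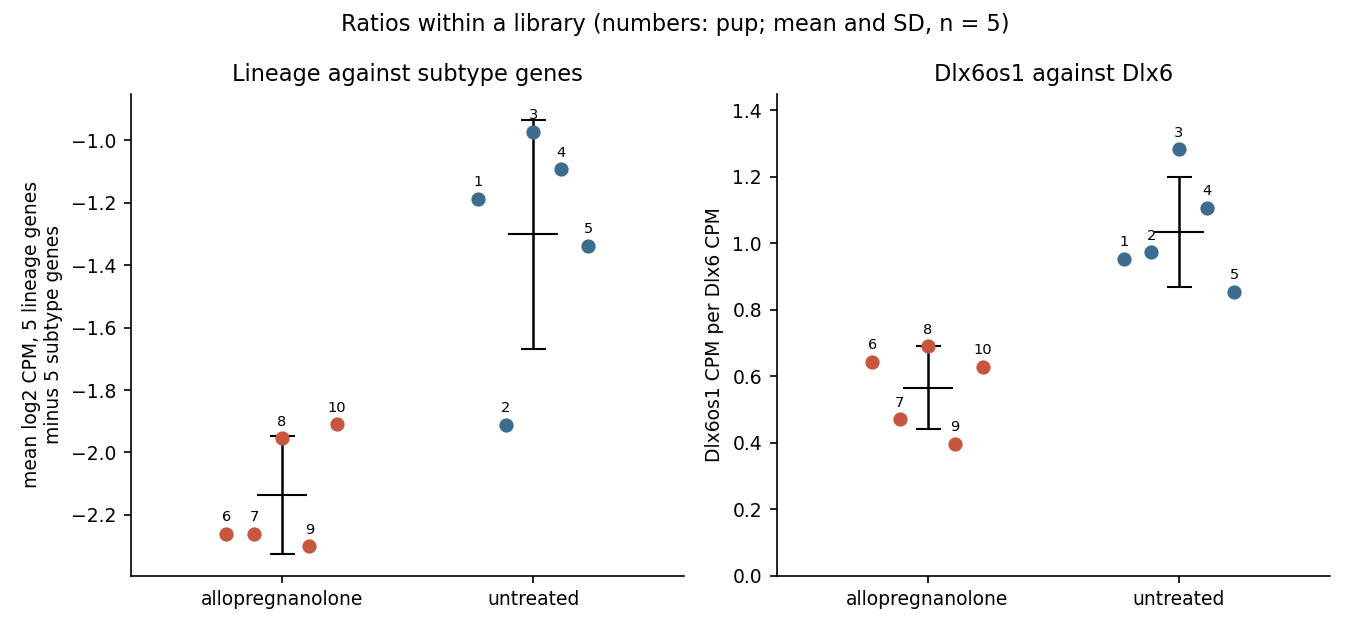
Left, the mean log2 CPM of the 5 lineage genes minus that of the 5 subtype genes in each library. Right, Dlx6os1 CPM divided by Dlx6 CPM in the same library. Points are libraries numbered by pup, with allopregnanolone left of untreated, and marks with bars are means and SD (n = 5). The right panel has no overlap, and on the left untreated library 2 lies level with allopregnanolone library 10.

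Dlx1 and Dlx2 are homeodomain genes that face each other on chromosome 2 and are needed together for interneurons to leave the eminences. Dlx1 (ENSMUSG00000041911, 71528113 to 71533981, plus strand) stood at 37.7, 36.8, 40.6, 33.5 and 40.1 CPM in allopregnanolone libraries 6 to 10, and at 45.8, 37.7, 70.5, 76.9 and 51.9 CPM in untreated libraries 1 to 5. The allopregnanolone libraries lay close together, and untreated library 2 was among them while untreated libraries 3 and 4 were well above. These 2 libraries were also the highest for Sp8, another lineage gene (11.4 and 12.9 CPM, the others at most 8.04 CPM). The same held for Eomes, listed below with cerebellar granule cells (12.7 and 13.0 CPM, the others at most 4.06 CPM). What sets untreated libraries 3 and 4 apart was not tested. The means were 37.7 ± 2.88 CPM with allopregnanolone and 56.6 ± 16.6 CPM in untreated pups (SD, n = 5 each). Dlx1 changed by -0.58 on the log2 scale (SE 0.16, edgeR adjusted p = 0.0309). This call held in 14 of 22 alternative analyses and in 5 of 10 that left out a single library, being lost without untreated library 3 or 4 and without allopregnanolone library 7, 9 or 10. With the midbrain covariate the log2 fold change of Dlx1 was -0.23 (SE 0.25, edgeR adjusted p = 0.768). Its antisense gene Dlx1as shares 335 bases of exon with it, which is 6.21% of the Dlx1 exons. Dlx1as averaged 1.94 ± 0.532 CPM with allopregnanolone and 2.70 ± 0.252 CPM in untreated pups (SD, n = 5 each, log2 fold change -0.49, SE 0.19, adjusted p = 0.123, edgeR). The sources used here do not give the strand setting of the counting, and reads from the shared bases cannot be told apart.

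Dlx2 (chromosome 2, 71543408 to 71546754, minus strand) stood at 19.8, 20.9, 17.7, 16.7 and 24.9 CPM in allopregnanolone libraries 6 to 10, and at 23.4, 17.5, 35.1, 32.7 and 29.6 CPM in untreated libraries 1 to 5. The order of the untreated libraries resembled that of Dlx1, with library 2 lowest and libraries 3 and 4 highest. Its log2 fold change of -0.47 (SE 0.16, adjusted p = 0.0806, edgeR) did not pass the threshold. Dlx1 CPM per Dlx2 CPM was 1.61 to 2.29 with allopregnanolone and 1.75 to 2.35 in untreated pups, so the ratio of the pair overlapped between the groups. Lhx6, a LIM homeodomain factor of cells from the medial eminence (chromosome 2, 36081953 to 36105408), stood at 34.2, 34.1, 41.6, 40.2 and 41.2 CPM in allopregnanolone libraries 6 to 10, and at 47.4, 35.0, 37.8, 38.0 and 47.3 CPM in untreated libraries 1 to 5. The groups overlapped broadly, and Lhx6 had the smallest log2 fold change in size of the 10 members, at -0.10 (SE 0.09, adjusted p = 0.519, edgeR).

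Pvalb encodes parvalbumin, the calcium buffer of fast-spiking interneurons, which Purkinje cells and many brainstem neurons also make. It lies on chromosome 15, 78191114 to 78206400, minus strand (ENSMUSG00000005716), with 1041 bases of exon. Its upstream RefSeq window is shown because it had the largest rise of the members (GRCm38.p6, minus strand, chr15:78206351-78206650), and it has no capitals because it holds no TAATTA.
Pvalb, window 1: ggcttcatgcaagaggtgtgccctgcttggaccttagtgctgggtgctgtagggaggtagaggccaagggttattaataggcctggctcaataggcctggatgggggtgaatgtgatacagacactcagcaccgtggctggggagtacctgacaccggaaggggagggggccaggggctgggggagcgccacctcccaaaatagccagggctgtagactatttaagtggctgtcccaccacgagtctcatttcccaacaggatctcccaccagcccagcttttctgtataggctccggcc

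Pvalb stood at 23.1, 20.6, 13.0, 20.1 and 20.7 CPM in allopregnanolone libraries 6 to 10, and at 8.86, 11.03, 4.36, 8.32 and 8.77 CPM in untreated libraries 1 to 5. Every allopregnanolone library lay above every untreated library, with allopregnanolone library 8 and untreated library 2 nearest to each other. The means were 19.5 ± 3.82 CPM with allopregnanolone and 8.27 ± 2.43 CPM in untreated pups (SD, n = 5 each), from 110 to 776 counts a library. On the log2 scale this was a change of 1.24 (SE 0.20, edgeR adjusted p = 0.00272), and 81 genes tested had a higher one. The call held in 21 of 22 alternative analyses, with log2 fold changes of 0.75 to 1.37, and was lost with the midbrain covariate (0.75, adjusted p = 0.293). Among 13862 other protein-coding genes averaging at least 1 CPM, Cldn11 and Trf, both known from myelinating oligodendrocytes, were among the 3 whose profile over the 10 libraries was most like that of Pvalb, with root mean square differences of 0.267 and 0.269 on the centred log2 scale. For Dlx1 the 3 were Tshz1 (0.158), Dlx2 (0.164) and Mplkip (0.165).

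Sst and Npy encode neuropeptides, and Calb2 encodes calretinin, a calcium buffer of another interneuron class. Sst (chromosome 16, 23889573 to 23890958) stood at 265, 259, 289, 269 and 268 CPM in allopregnanolone libraries 6 to 10, and at 261, 259, 188, 213 and 269 CPM in untreated libraries 1 to 5. The 5 allopregnanolone libraries and untreated libraries 1, 2 and 5 were at similar levels, with untreated libraries 3 and 4 below, with a log2 fold change of 0.18 (SE 0.09, edgeR adjusted p = 0.2). Pvalb CPM as a share of Sst CPM was 8.72%, 7.97%, 4.50%, 7.48% and 7.73% in allopregnanolone libraries 6 to 10, and 3.39%, 4.26%, 2.32%, 3.91% and 3.25% in untreated libraries 1 to 5. The Sst window holds the letters TGACGTCA, the cyclic AMP response element, at 48 bases before the start, and 1.79% of all windows hold them.

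Npy (chromosome 6, 49822710 to 49829507) stood at 59.9, 104, 83.1, 88.1 and 72.7 CPM in allopregnanolone libraries 6 to 10, and at 78.3, 75.8, 54.6, 70.8 and 83.8 CPM in untreated libraries 1 to 5. Allopregnanolone library 7 was highest and library 6 among the lowest, so the groups overlapped (log2 fold change 0.16, SE 0.13, adjusted p = 0.471, edgeR). Calb2 (chromosome 8, 110137502 to 110168210) stood at 173, 126, 80.7, 110 and 110 CPM in allopregnanolone libraries 6 to 10, and at 44.4, 99.4, 132, 77.9 and 117 CPM in untreated libraries 1 to 5. It had the widest relative spread within groups of the members, with a coefficient of variation of 28.3% with allopregnanolone and 36.5% in untreated pups. Its log2 fold change of 0.35 (SE 0.25, adjusted p = 0.387, edgeR) turned to -0.25 with the midbrain covariate.

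Reln encodes reelin, a large secreted protein that guides the layering of the cortex and is made by Cajal-Retzius cells, some interneurons and cerebellar granule cells. It lies on chromosome 5, 21884454 to 22344702, with 23738 bases of exon, of which 246 are shared with the antisense gene Gm10475, at no more than 0.223 CPM in any library. Reln stood at 118, 120, 149, 136 and 117 CPM in allopregnanolone libraries 6 to 10, and at 147, 156, 178, 171 and 129 CPM in untreated libraries 1 to 5. Of the allopregnanolone libraries 3 lay below all untreated ones, and the groups overlapped through allopregnanolone libraries 8 and 9 and untreated libraries 1 and 5. The log2 fold change of -0.29 (SE 0.09, adjusted p = 0.0554, edgeR) was the only 1 among the subtype genes below 0. It missed the threshold narrowly, and it passed in 8 of 22 alternative analyses.

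**Figure D3:**
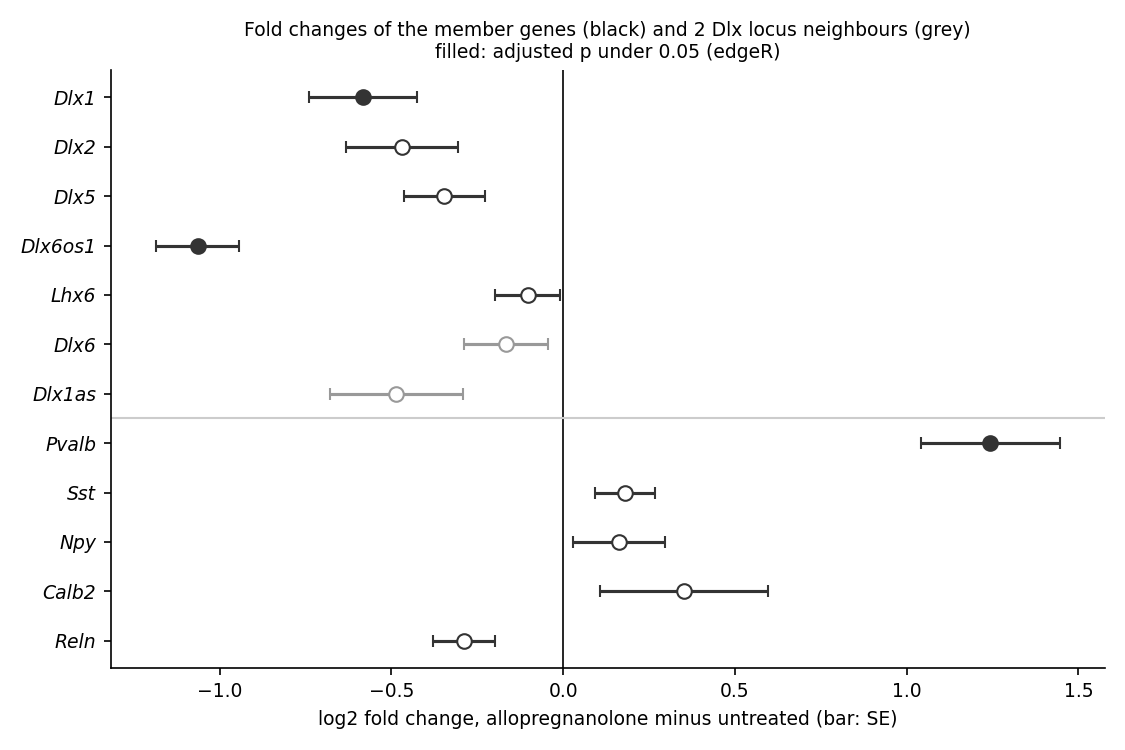
Log2 fold changes (allopregnanolone minus untreated, horizontal axis) with SE for the members in black and the neighbours Dlx6 and Dlx1as in grey, lineage genes above the line and subtype genes below. Filled points have an edgeR adjusted p below 0.05, namely Dlx1 (-0.58), Dlx6os1 (-1.06) and Pvalb (1.24).

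Per kilobase of exon the members spanned a wide range of levels in both groups. Sst led at 374 ± 15.9 CPM per kilobase with allopregnanolone and 330 ± 49.5 in untreated pups (SD, n = 5 each), followed by Npy at 144 ± 29.1 and 128 ± 19.7, and Calb2 at 68.8 ± 19.5 and 54.0 ± 19.7. Pvalb, at 18.8 ± 3.67 CPM per kilobase with allopregnanolone and 7.94 ± 2.33 in untreated pups, ranked 4 of the 10 members with allopregnanolone and 8 in untreated pups. Dlx1, Dlx2, Dlx5 and Lhx6 were at 6.85 to 7.96 CPM per kilobase with allopregnanolone and at 8.55 to 10.5 in untreated pups, and their order within a group was not separated beyond their SDs. Reln was at 5.39 ± 0.593 with allopregnanolone and 6.58 ± 0.822 in untreated pups, and Dlx6os1 was lowest in both groups at 1.64 ± 0.184 and 3.41 ± 0.555. These lengths are the union of all annotated exons, which understates the level of genes with many isoforms.

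Set against each other within a library, the mean of the lineage genes stood lower relative to that of the subtype genes with allopregnanolone. The mean log2 CPM of the 5 lineage genes minus that of the 5 subtype genes was -2.26, -2.26, -1.95, -2.30 and -1.91 in allopregnanolone libraries 6 to 10, and -1.19, -1.91, -0.97, -1.09 and -1.34 in untreated libraries 1 to 5. The group means differed by -0.84, and the groups met at allopregnanolone library 10 and untreated library 2. The members did not contribute evenly to this difference. Dlx6os1 (-1.06) and Pvalb (1.24) had the largest log2 fold changes, and Dlx1, Dlx2, Dlx5 and Calb2 had intermediate ones. Lhx6 (-0.10), Sst (0.18) and Npy (0.16) had the smallest, and Reln (-0.29) went against the other subtype genes. The lineage sum was 17.9% to 22.6% of the subtype sum with allopregnanolone and 19.6% to 34.6% in untreated pups. Untreated library 2 was the lowest untreated library for all 5 lineage genes and the highest for Pvalb, and it also had the highest midbrain sum of the untreated libraries. No test was made on this contrast, because the members were chosen with results of these data known.

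Of 20 other genes of the interneuron lineage, all tested, 3 fell, 1 rose and 16 did not pass, where 4.65% of all genes tested fell and 6.61% rose. Their log2 fold changes went both ways, 8 above 0 and 12 below, with a median of -0.03 beside -0.0046 over all genes tested. The zinc finger factors Sp9 and Sp8, known from the lateral and caudal eminences, fell by 0.39 and 0.86 on the log2 scale (adjusted p = 0.0197 and 0.0482, edgeR). Ackr3, a chemokine receptor of migrating interneurons, rose by 0.32 (adjusted p = 0.0343, edgeR). Sox6 and Satb1, which act after Lhx6, had log2 fold changes of -0.0096 and 0.04, and Nkx2-1 had 0.27, none past the threshold. With the midbrain covariate, or with untreated libraries 1 to 3 left out, none of the 20 passed.

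Of 23 other subtype genes, 3 rose, none fell and 20 did not pass, beside the same shares of all genes tested (6.61% and 4.65%). Their median log2 fold change was 0.12, with 16 above 0 and 7 below. The potassium channel genes Kcnc1 and Kcnc2, which let fast-spiking cells fire at high rates, rose by 0.42 and 0.30 on the log2 scale (adjusted p = 0.00678 and 0.0211, edgeR), and neither overlapped between the groups. Syt2, the calcium sensor of fast transmitter release, averaged 63.2 ± 20.5 CPM with allopregnanolone and 34.4 ± 7.27 CPM in untreated pups (SD, n = 5 each, log2 fold change 0.88, SE 0.20, adjusted p = 0.0154, edgeR). Syt2 was 81.8, 84.2, 45.3, 65.4 and 39.4 CPM in allopregnanolone libraries 6 to 10. Library 10 thus lay within the untreated range of 26.8 to 42.5 CPM. Libraries 6, 7 and 9, the highest for Syt2, also had the highest midbrain sums (146, 110 and 79.0 CPM). In the same list Kcns3, Cox6a2 and Pthlh had log2 fold changes of 0.37, 0.13 and 0.02, none past the threshold. The peptide genes Vip, Cck, Tac1, Penk and Cort had log2 fold changes of 0.25, 0.05, -0.19, -0.07 and -0.17, none past the threshold. None of the 23 passed with the midbrain covariate or with untreated libraries 1 to 3 left out. Of the 4 genes shared by GABA neurons 2 rose and none fell, with a median log2 fold change of 0.20. Gad1, which makes GABA, rose by 0.20 on the log2 scale (adjusted p = 0.0411, edgeR), while Gad2 had a log2 fold change of 0.09.

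Of 11 genes for receptors and signal partners of somatostatin, neuropeptide Y and reelin, 3 fell and none rose, beside 4.65% and 6.61% of all genes tested, with a median log2 fold change of -0.20. Lrp8, a reelin receptor, averaged 112 ± 6.72 CPM with allopregnanolone and 141 ± 9.62 CPM in untreated pups (SD, n = 5 each), with no overlap (log2 fold change -0.32, SE 0.06, adjusted p = 0.00486, edgeR). The other reelin receptor Vldlr fell by 0.22 and the neuropeptide Y receptor Npy5r by 0.56 on the log2 scale (adjusted p = 0.0394 and 0.0426, edgeR). Dab1, the adaptor below both reelin receptors, had a log2 fold change of -0.04. The 5 somatostatin receptor genes ranged from -0.26 (Sstr4) to -0.03 (Sstr3), none past the threshold.

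**Figure D4:**
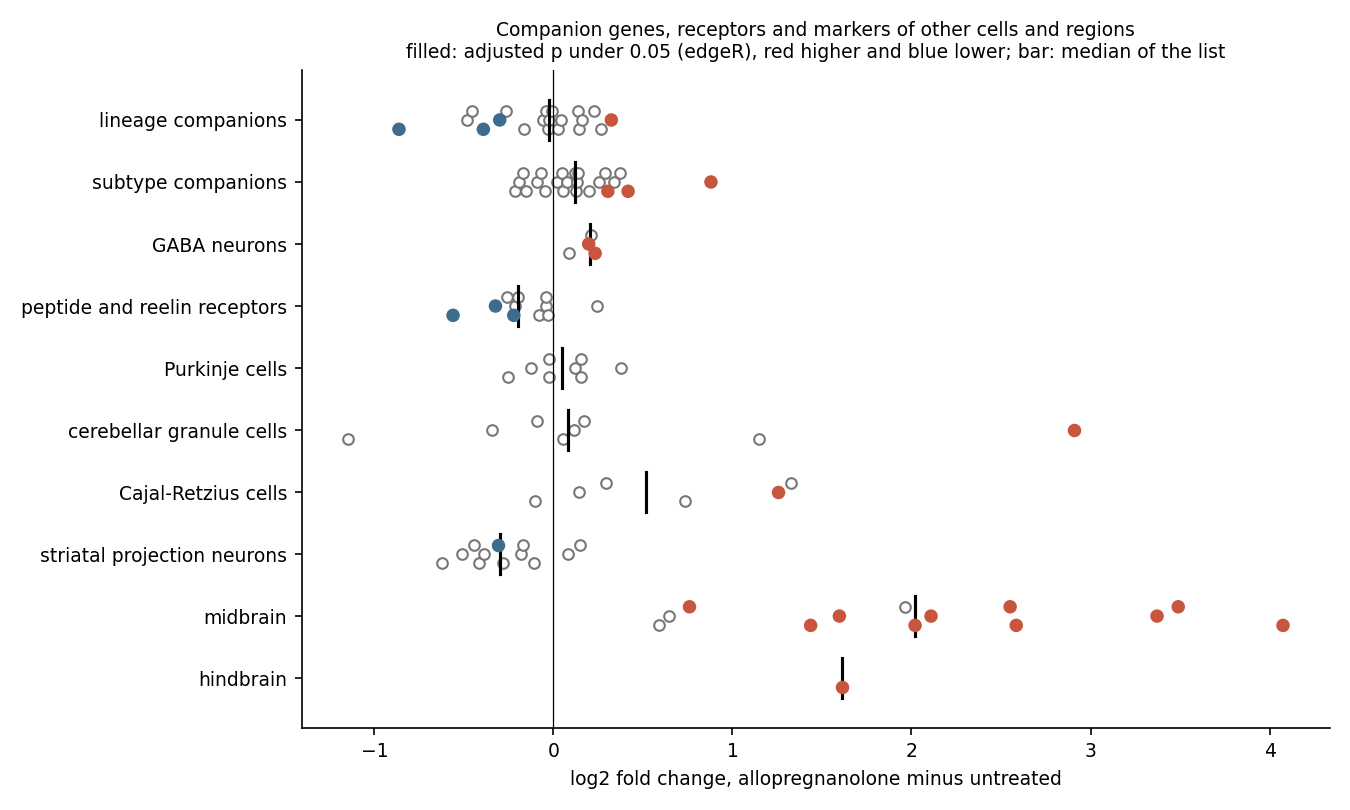
Log2 fold changes (allopregnanolone minus untreated, horizontal axis) of the tested genes of each list, 1 point a gene, with a bar at the list median. Filled points have an edgeR adjusted p below 0.05, red as higher and blue as lower; midbrain genes lie farthest to the right, with a median of 2.02.

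Markers of other sources of these transcripts differed between the groups to unequal degrees. Of 13 midbrain genes tested 10 rose and none fell, beside 6.61% and 4.65% of all genes tested, with a median log2 fold change of 2.02. In allopregnanolone libraries 8 and 10 the midbrain sums of 28.7 and 32.7 CPM lay within the untreated range of 18.9 to 33.6 CPM. They did so through untreated library 2 alone, as untreated libraries 1, 3, 4 and 5 were at 18.9 to 25.3 CPM. Of the 13 midbrain genes, 2 (Gata2 and Pax5) did not overlap between the groups, beside 9.64% of all genes tested. Gata2 was 6.26 and 7.14 CPM in libraries 8 and 10, against at most 4.90 CPM in untreated libraries. These libraries were therefore not matched to untreated ones in every midbrain gene. Pvalb in libraries 8 and 10 was 13.0 and 20.7 CPM against 4.36 to 11.03 CPM in untreated libraries. Of the allopregnanolone libraries, library 8 had the lowest Pvalb and the lowest midbrain sum. Dlx6os1 in libraries 8 and 10 was 9.19 and 9.59 CPM, against 13.4 to 20.7 CPM in untreated libraries. Dlx1 in them was 40.6 and 40.1 CPM, within the untreated range. Libraries 8 and 10 were set apart by their midbrain sums, and no test was made on them. Purkinje cell genes summed to 514 to 616 CPM with allopregnanolone and to 468 to 607 CPM in untreated pups, and none of 8 tested passed. Pcp4 alone averaged 333 CPM of these sums with allopregnanolone and 338 CPM in untreated pups. The Purkinje marker Pcp2, below the count minimum, was 0.358, 0.169, 0, 2.03 and 2.11 CPM in allopregnanolone libraries 6 to 10 and at most 0.172 CPM in untreated pups. Skor2, also below the count minimum, averaged 0.171 CPM with allopregnanolone and 0.046 CPM in untreated pups. With the mean of the 8 tested Purkinje genes as a covariate, Pvalb and Dlx6os1 kept their calls (adjusted p = 0.00301 and 0.000344, edgeR). Dlx1 missed the threshold with a log2 fold change of -0.53, beside -0.58 without the covariate (adjusted p = 0.0531, edgeR). This covariate does not include Pcp2 or Skor2, so the part of Purkinje cells in these differences was not tested by it.

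**Figure D5:**
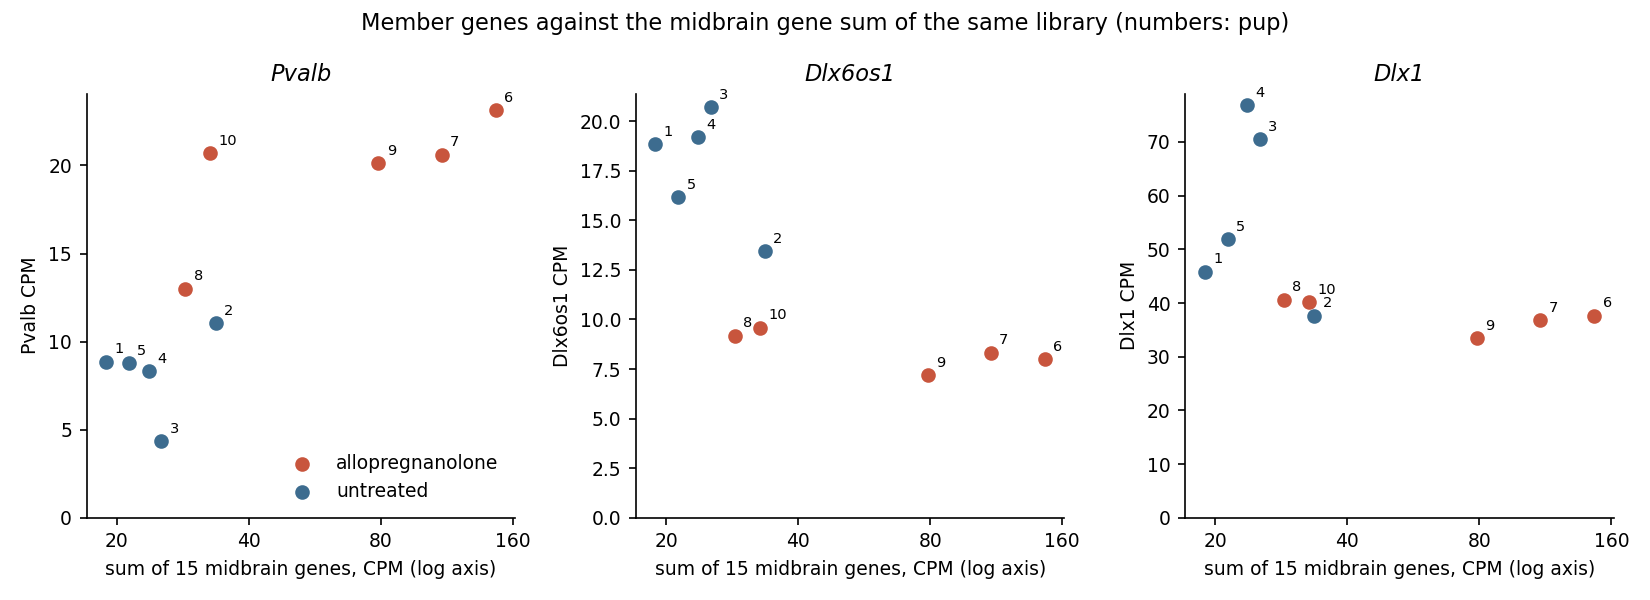
CPM of Pvalb, Dlx6os1 and Dlx1 in each library against the summed CPM of 15 midbrain genes in the same library (log axis), with points numbered by pup. The sums of allopregnanolone libraries 8 and 10 lie within the untreated range through untreated library 2 alone, and not every midbrain gene overlaps. In these libraries Pvalb lies above and Dlx6os1 below all untreated libraries. Library 8 has the lowest midbrain sum and the lowest Pvalb of the allopregnanolone libraries, and no test was made on libraries 8 and 10.

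Cerebellar granule cell genes summed to 141 to 280 CPM with allopregnanolone and to 158 to 272 CPM in untreated pups, and of 8 tested Barhl1 rose by 2.91 on the log2 scale (adjusted p = 0.00915, edgeR) and none fell. Atoh1, which defines their progenitors, was near 0 in both groups. Of 6 genes of Cajal-Retzius cells, which make reelin, Lhx1 rose by 1.25 on the log2 scale (adjusted p = 0.035, edgeR) and none fell, while Trp73, a defining gene, averaged 2.87 ± 1.07 CPM with allopregnanolone and 3.11 ± 0.642 CPM in untreated pups (SD, n = 5 each). Lhx1 and several others of that list are also made in the midbrain and hindbrain. Of 12 genes of striatal projection neurons, which descend from Dlx-expressing progenitors, Bcl11b fell by 0.31 on the log2 scale (adjusted p = 0.0299, edgeR) and 11 did not pass, with a median log2 fold change of -0.30. Their sum was 564 to 1425 CPM with allopregnanolone and 990 to 1517 CPM in untreated pups, with allopregnanolone library 6 the lowest. The granule cell, Cajal-Retzius and striatal lists each had 1 called gene, where 6.61% of all genes tested rose and 4.65% fell. The part of these cell and region genes in the differences of the members was not tested beyond the values and covariates given.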

How the data were processed

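Whole-brain RNA of 10 pups was sequenced, 1 library a pup (5 with allopregnanolone, 5 untreated). Per the labels' protocols, libraries were made from total RNA with a strand-preserving kit. Partek and mm10 are named in the submitters' processing notes, while aligner, annotation and strand setting were not given in the sources used here. The table as deposited by the authors holds estimated counts (expected counts) per Ensembl gene. Its name calls them normalized, but 86.8% to 87.6% of values above 0 were exactly whole as deposited (a tolerance of 0) and library totals differed, so they were rounded and analysed as counts.

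Names, positions and exon lengths came from GENCODE M21 (GRCm38), in which 55144 of 55471 identifiers were found, and start windows came from RefSeq (GRCm38.p6). Genes with at least 10 counts in at least 5 libraries were kept (17101). TMM scaling (factors 0.953 to 1.04) and edgeR 4.0.16 (R 4.3.3), with its two-sided quasi-likelihood test, were used with no covariate and with Benjamini-Hochberg adjustment over all genes kept. CPM is TMM-scaled, and SE is the log2 fold change divided by the root of F. Log2 CPM used a prior count of 1. On data simulated from these libraries for this comparison, with 17101 genes of which 200 were changed, 57% of 1.5-fold changes were called, as were 88% of 2-fold changes, and 5.23% of all calls fell on genes with no change.

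The members and lists were chosen with earlier results of these data known. Named genes are the members, exon neighbours, up to 4 called genes of each list by p, and the 3 genes most like Pvalb and Dlx1 in profile. Further uncalled list genes were named after their values were seen. A few genes covered by this naming rule are left out of the text. Alternatives numbered 22: scaling by median-of-ratios, upper quartile or library totals, no filter or 100 counts, DESeq2 1.42.0, limma-trend (limma 3.58.1), robust empirical Bayes, midbrain or Purkinje list covariates, thinning to 18656827 counts, leaving out the 3 libraries of another name prefix, and leaving out each library. Figures used matplotlib 3.10.9.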

Additional observations from a re-analysis of the deposited data

How the results depend on the processing

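The signs of the log2 fold changes of 8 members held in all 22 alternatives, and Lhx6 (0.17) and Calb2 (-0.25) changed sign with the midbrain covariate, as uncalled values. The count of higher members was 1 in all alternatives but the midbrain covariate, where 0 were higher and 0 lower. Lower members numbered 2 in the comparison as reported, 5 with DESeq2, 4 with library totals alone and 4 without a count filter. They numbered 3 with the filter of 100 counts, with upper-quartile scaling and with thinning. They numbered 1 with the Purkinje covariate and 1 with robust empirical Bayes, and 1 to 4 with a library left out (4 without untreated library 2). Over all genes tested, 1131 were higher and 795 lower, against 65 and 26 with the midbrain covariate, 80 and 25 with untreated libraries 1 to 3 left out, and 645 to 1360 and 435 to 983 with a library left out. With library totals alone the split was 783 higher to 1451 lower, and the median over all genes shifted by -0.06 (log2). Lineage companions higher were 0 in place of 1 with library totals alone, without a count filter, with thinning, with the midbrain covariate and with untreated libraries 1 to 3 left out, and 0 to 1 with a library left out. Lineage companions lower were 0 in place of 3 with the midbrain covariate and with untreated libraries 1 to 3 left out, and 1 to 3 with a library left out. Subtype companions higher were 0 in place of 3 in those same 2 analyses and 2 to 3 with a library left out. The lineage minus subtype difference was -0.99 to -0.75 with a library left out. Leaving out untreated libraries 1 to 3 leaves 2 untreated libraries, which lowers the power of the test. The midbrain list differed between the groups (mean sums of 79.3 CPM with allopregnanolone and 24.5 CPM untreated). Its covariate therefore cannot separate treatment from midbrain content. With it the SE went from 0.20 to 0.27 for Pvalb and from 0.16 to 0.25 for Dlx1. All 22 alternatives reuse the same 10 libraries or part of them, so they are not independent of each other. The cause of the other changes was not tested. No paired analysis was made, because the labels give no litter or other matching between pups 1 to 5 and 6 to 10.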

Other observations

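The lineage genes differed in how tightly the libraries of a group agreed. The coefficient of variation of Dlx1 was 7.63% with allopregnanolone and 29.3% in untreated pups, that of Dlx2 was 15.9% and 25.9%, and that of Dlx5 was 7.13% and 18.8%. For Sst it was 4.25% with allopregnanolone and 14.97% in untreated pups, while for Npy it was 20.2% and 15.3%. The difference in spread was not tested, and none of the 20 sets of 5 libraries (10 members, 2 groups) had a library far enough from the others to pass Dixon's criterion.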
